A study of Mus musculus with 8 samples.

Results

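The 10 genes described here encode subunits of the BAF (SWI/SNF) chromatin remodelling complex. They cover subunits that are exchanged when a neural progenitor becomes a neuron, the alternative ATPases and the Bcl7 family. They were chosen by name as the entries of the count table called *Bcl7a*, *Bcl7b*, *Bcl7c*, *Smarca2*, *Smarca4*, *Actl6a*, *Actl6b*, *Phf10*, *Dpf1* and *Dpf3*. All 10 were found among the 54532 genes deposited, and all 10 were among the 17998 genes that passed the filter on low counts. RNA-seq compared whole retinas of 4 *Mettl3*-CKO samples with those of 4 control samples. The *Mettl3*-CKO samples came from *Six3*-Cre-positive mice homozygous for a floxed *Mettl3* allele, and the controls were their littermates, labelled only as controls. The labels give postnatal day 7 for both groups, whereas the study's methods give a day earlier. *Six3*-Cre acts in retinal progenitor cells, and the study describes its effect on the protein for the central retina, so that a whole-retina sample can also hold cells that kept the allele. Nothing in the labels states how many animals a sample holds or that the samples of a group came from separate animals, so the p-values measure only the spread between these samples.

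BAF complexes use the energy of ATP to move nucleosomes and so open or close chromatin. In dividing neural progenitors the complex carries the actin-related subunit ACTL6A (BAF53A) and the plant homeodomain subunit PHF10 (BAF45A). As neurons leave the cell cycle these are replaced by ACTL6B (BAF53B) and by DPF1 (BAF45B) or DPF3 (BAF45C), and SS18 gives way to SS18L1 (CREST). SMARCA4 (BRG1) and SMARCA2 (BRM) are the alternative ATPases, of which only a single copy enters each complex, and the BCL7 proteins are small accessory subunits. In neurons the *Actl6a* mRNA is repressed by miR-9-3p and miR-124, and the transcriptional repressor REST keeps these microRNAs off in non-neuronal cells. METTL3 is the catalytic subunit of the complex that writes N6-methyladenosine (m6A) on mRNA, often at the bases GGACT and near the stop codon.

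The Bcl7 genes are closely related, and the first 150 bases of their coding sequences are shown to give the extent of this likeness. Each is spliced from exons 1 and 2 of its principal transcript in GENCODE vM21 (GRCm38), and capitals mark the positions at which all 3 genes carry the same base.
*Bcl7a*, chr5:123344630-123351924, plus strand: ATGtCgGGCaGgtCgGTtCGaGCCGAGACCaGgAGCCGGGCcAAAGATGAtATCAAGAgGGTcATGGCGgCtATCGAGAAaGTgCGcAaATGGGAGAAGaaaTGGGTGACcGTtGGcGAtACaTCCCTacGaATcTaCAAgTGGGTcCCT
*Bcl7b*, chr5:135168507-135171144, plus strand: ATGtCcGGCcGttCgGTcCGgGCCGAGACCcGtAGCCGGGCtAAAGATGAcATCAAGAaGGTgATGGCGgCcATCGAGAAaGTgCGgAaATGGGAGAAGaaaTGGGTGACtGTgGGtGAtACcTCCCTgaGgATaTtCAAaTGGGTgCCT
*Bcl7c*, chr7:127707901-127708527, minus strand: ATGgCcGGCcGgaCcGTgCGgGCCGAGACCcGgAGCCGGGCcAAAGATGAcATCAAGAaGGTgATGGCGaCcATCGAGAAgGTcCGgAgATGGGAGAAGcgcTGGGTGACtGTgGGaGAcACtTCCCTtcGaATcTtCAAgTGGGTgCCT
All 3 genes carried the same base at 115 of the 150 positions (76.7%), and by pairs *Bcl7b* and *Bcl7c* shared 128, *Bcl7a* and *Bcl7b* 126, and *Bcl7a* and *Bcl7c* 122. Over the whole principal transcripts, the longest run of identical bases was 27 between *Bcl7b* and *Bcl7c*, 23 between *Bcl7a* and *Bcl7b*, and 19 between *Bcl7a* and *Bcl7c*. Between the exchanged or alternative subunits it was 31 for *Dpf1* and *Dpf3*, 23 for *Actl6a* and *Actl6b*, 20 for *Smarca2* and *Smarca4*, and 12 or fewer for *Phf10* with either Dpf gene. The methods give paired-end reads of 150 bases, longer than any of these runs. A full read therefore cannot match both principal transcripts of such a pair exactly. How the authors' counting treated reads that match more than a single gene is not given in the sources used here.

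The GGACT occurrence nearest to the stop codon is shown for each Bcl7 gene, with 12 bases on each side and the letters GGACT in capitals, because *Mettl3* was the gene removed and *Bcl7a* is a transcript that the study followed up as carrying m6A.
*Bcl7a*, chr5:123371261-123371289, plus strand, exon 6 of 6: cagacacttgacGGACTctgccgtgaaac
*Bcl7b*, chr5:135180843-135180871, plus strand, exon 6 of 6: tgaggaagaggaGGACTctggtgctccgc
*Bcl7c*, chr7:127705091-127705119, minus strand, exon 6 of 6: gggtgacacagaGGACTcggagggcgccc
In *Bcl7a* the letters lay in the 3′UTR, 186 bases downstream of the start of the stop codon. In *Bcl7b* and *Bcl7c* they lay in the coding sequence, at positions -73 and -55 from the start of the stop codon. GGACT was searched on the transcript strand only. A window of 200 bases on each side of the stop codon held it in 40.9% of the 12452 principal transcripts long enough to have that window. Of the 7 members with a full window, only *Bcl7a* and *Bcl7b* held it, with 1 occurrence each, and *Smarca2*, *Smarca4*, *Actl6a*, *Dpf1* and *Dpf3* held none. Over the whole transcript, GGACT was densest in *Dpf1* (2.17 per kb) and sparsest in *Smarca2* (0.338 per kb), against a median of 1.06 per kb (quartiles 0.649 and 1.53) over 14200 principal transcripts. These matches describe the letters in the transcripts and are not measurements of m6A.

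The microRNA miR-9-3p and its match in *Actl6a* are shown because they belong to the known control of the exchange. The mature sequence is from RefSeq (GRCm38.p6), where the same 22 bases are encoded at chr3:88215652-88215673, chr13:83738858-83738879 and chr7:79505318-79505339, the last within the host gene *Mir9-3hg* measured here. Capitals mark the seed (bases 2 to 8) in the microRNA and its reverse complement in the 3′UTR of *Actl6a*.
miR-9-3p: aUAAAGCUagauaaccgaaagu
*Actl6a*, chr3:32726623-32726649, plus strand, exon 14 of 14: gtcacctcaacgtctgtAGCTTTAgta
The match begins 38 bases after the stop codon. In 3′UTRs at least as long as that of *Actl6a*, cut to its 371 bases, 2.93% of 10955 held such a match. Among the other members, *Smarca2* held 1 match and the other 8 genes, *Actl6b* included, held none. The mature microRNAs themselves were not measured in these libraries.

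The libraries held 16227095 to 20281517 counts each, with TMM factors of 0.969 to 1.01. Values in CPM are counts per 1000000 counted reads after this scaling. The targeted gene, *Mettl3*, measured 21.1, 29.6, 21.3 and 24.3 CPM across the 4 knockout samples, listed by replicate number here and throughout, against 33.8, 32.5, 29.4 and 29.3 CPM across the 4 controls, a log2 fold change of -0.38 (SE 0.12, adjusted p = 0.0602 by edgeR). DESeq2 (adjusted p = 0.0320) and limma voom (adjusted p = 0.0139) called it lower, as did edgeR without *Mettl3*-CKO replicate 2 (-0.49, adjusted p = 0.0185), which lay within the range of the controls. The count covers all exons and not the floxed part alone, and exons of *Mettl3* overlap those of *Tox4* on the opposite strand. There were 2 libraries that stood apart among the controls. Control replicate 4 held lens transcripts at a summed 4501 CPM, with control replicate 1 at 76.8 CPM and the lowest control at 5.39 CPM, and control replicate 1 had 2.38% of its counts on mitochondrial genes against 1.69% to 1.76% in the other controls and 1.77% to 2.26% in *Mettl3*-CKO. Over all genes, control replicate 1 also differed more from the other controls (chi-square of 23.6 to 41.2 per gene) than those did among themselves (5.01 to 14.7). Results that change without these 2 libraries are given below with their values.

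None of the 10 genes passed the test. By the quasi-likelihood test of edgeR, adjusted by Benjamini-Hochberg over all 17998 genes with a threshold of 0.05, 0 of the 10 were called higher in *Mettl3*-CKO, where 6.49% of all genes tested were, and 0 were called lower, where 4.05% were. At an unadjusted p under 0.05, 4 of the 10 stood out (*Dpf1*, *Actl6b*, *Bcl7b* and *Bcl7c*), against 24.6% of all genes. In 3 of the 10 (*Bcl7b*, *Bcl7c* and *Actl6b*) the CPM of the groups did not overlap, as was the case for 17.4% of all genes. The median log2 fold change over the 10 genes was -0.11, against -0.01 over all genes tested, with 3 values above 0 and 7 below. The choice of tool altered the calls. DESeq2 called 14.2% of the genes it tested and, of the 10, *Dpf1* alone, while limma voom with sample quality weights called 20.6% of genes and, of the 10, *Smarca4*, *Dpf3*, *Actl6b* and *Bcl7b*, all lower. No member was called by all 3 tools. In bulk RNA, fewer cells of a type and less RNA per cell cannot be told apart.

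**Figure D1:**
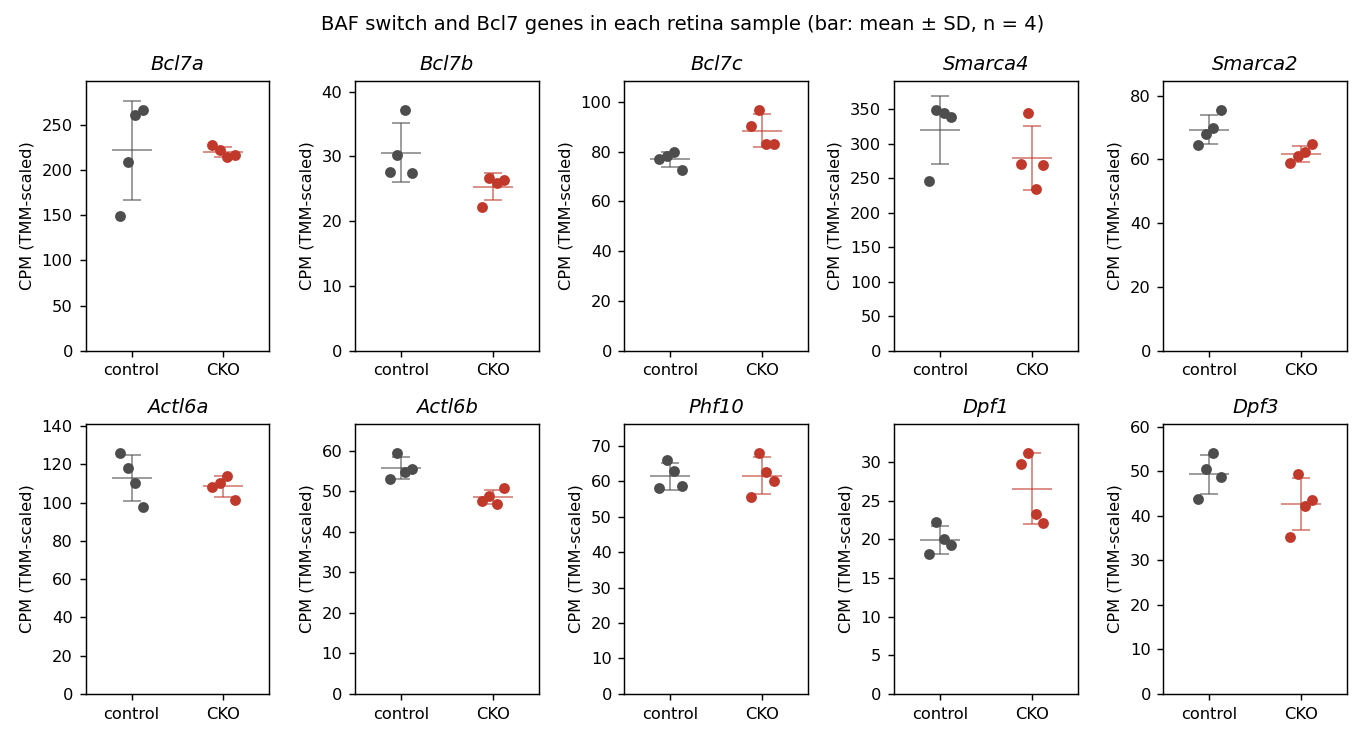
TMM-scaled CPM (y axis from 0) of each of the 10 genes in each sample, with control in grey and *Mettl3*-CKO in red; points from left to right within a group are replicates 1 to 4, and bars give the mean ± SD (n = 4). The groups do not overlap for *Bcl7b*, *Bcl7c* and *Actl6b*, control replicate 1 is the lowest control for *Bcl7a* and *Smarca4*, and the *Dpf1* groups nearly separate.

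The Bcl7 genes differed in the sign of their values, and none of the 3 passed the test. *Bcl7a* (chr5:123343834-123374992, plus strand) measured 227, 222, 215 and 216 CPM across the 4 knockout samples and 150, 210, 261 and 267 CPM across the 4 controls. The knockout samples lay inside the range of the controls, and control replicate 1 was the lowest of all 8 samples. The means were 220.1 ± 5.76 and 221.9 ± 54.6 CPM (SD, n = 4 each), a log2 fold change of -0.01 (SE 0.15, 95% interval -0.33 to 0.30, adjusted p = 0.973 by edgeR). Its sign depended on single libraries, the value being -0.16 without control replicate 1 and 0.09 without control replicate 4. By single-cell RNA-seq the study found *Bcl7a* raised in its *Mettl3*-mutant progenitor and Müller cell clusters. Those are selected cells, so the whole-retina value does not measure the same thing. In *Mettl3*-CKO retinas the study also reported less m6A on *Bcl7a* by MeRIP-qPCR and, at an earlier age, a longer half-life of its transcript. Neither m6A nor half-life was measured by these libraries. Exons of *Bcl7a* overlap the antisense gene *Gm15860*, and since the strand setting of the counting is not given in the sources used here, reads of the pair cannot be told apart.

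*Bcl7b* (chr5:135168283-135181855, plus strand), the least counted of the family, measured 22.2, 26.6, 26.0 and 26.4 CPM across the 4 knockout samples and 27.6, 30.2, 37.2 and 27.4 CPM across the 4 controls. Every knockout sample lay below every control, with 26.6 CPM as the highest knockout value and 27.4 CPM as the lowest control value. The log2 fold change was -0.27 (SE 0.11, 95% interval -0.52 to -0.02, unadjusted p = 0.0336, adjusted p = 0.160 by edgeR). Without control replicates 1 and 4 it was -0.42 and passed the threshold (adjusted p = 0.0417 by edgeR), and limma voom gave -0.33 (adjusted p = 0.0427). It was smaller without control replicate 3 (-0.16, adjusted p = 0.415) and, over single samples left out, ran from -0.32 to -0.16.

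*Bcl7c* (chr7:127661456-127708933, minus strand) measured 90.5, 96.8, 83.2 and 83.2 CPM across the 4 knockout samples and 76.9, 78.2, 79.9 and 72.8 CPM across the 4 controls. Here every knockout sample lay above every control. The log2 fold change was 0.20 (SE 0.08, 95% interval 0.02 to 0.38, unadjusted p = 0.0339, adjusted p = 0.160 by edgeR), and the adjusted p stayed between 0.111 and 0.348 in all 15 alternative fits. Of the summed CPM of the 3 genes, *Bcl7a* took 66.0% ± 1.15 in *Mettl3*-CKO and 66.7% ± 5.85 in control, *Bcl7b* took 7.59% ± 0.726 and 9.41% ± 1.41, and *Bcl7c* took 26.5% ± 1.15 and 23.9% ± 4.66 (SD, n = 4 each). These shares overlapped between the groups for all 3 genes, and since they are not corrected for length they do not rank the genes.

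The ATPase genes had lower means in *Mettl3*-CKO without passing the test. *Smarca4*, which encodes BRG1 (chr9:21616169-21704230, plus strand), measured 271, 345, 234 and 269 CPM across the 4 knockout samples and 246, 349, 345 and 339 CPM across the 4 controls. Of the controls 3 lay close together, and control replicate 1 lay among the knockout samples. The log2 fold change was -0.19 (SE 0.13, 95% interval -0.48 to 0.10, adjusted p = 0.420 by edgeR) and ran from -0.31 to -0.11 when single samples were left out, with -0.30 (adjusted p = 0.0561) without control replicate 1 and -0.11 (adjusted p = 0.714) without *Mettl3*-CKO replicate 3. The weighted fit of limma voom gave -0.34 (adjusted p = 0.0206) and called it, which edgeR did not do with or without control replicate 1.

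*Smarca2*, which encodes BRM (chr19:26605050-26778322, plus strand), measured 58.8, 61.2, 62.3 and 64.7 CPM across the 4 knockout samples and 64.4, 67.8, 69.7 and 75.5 CPM across the 4 controls. The groups overlapped only through *Mettl3*-CKO replicate 4 and control replicate 1. The log2 fold change was -0.17 (SE 0.08, 95% interval -0.35 to 0.01, adjusted p = 0.238 by edgeR). The spread of *Smarca2* was smaller than that of its paralog, with an SD of 4.66 CPM on a mean of 69.4 CPM in control against 49.5 on 319.6 CPM for *Smarca4*. Exons of *Smarca2* overlap the antisense gene *4931403E22Rik*, and those of *Smarca4* the small RNA gene *Gm27373* on the same strand.

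Of the actin-related subunits, the neuronal *Actl6b* was lower in every knockout sample and the progenitor *Actl6a* overlapped. *Actl6b* (chr5:137553517-137569582, plus strand) measured 47.7, 48.9, 47.0 and 50.9 CPM across the 4 knockout samples and 53.2, 59.5, 54.8 and 55.7 CPM across the 4 controls. The log2 fold change was -0.20 (SE 0.08, 95% interval -0.37 to -0.03, unadjusted p = 0.0274, adjusted p = 0.142 by edgeR), and limma voom called it at -0.22 (adjusted p = 0.0412). The means were 48.6 ± 1.70 CPM in *Mettl3*-CKO and 55.8 ± 2.66 CPM in control (SD, n = 4 each). The nearest samples of the groups were at 50.9 CPM in *Mettl3*-CKO and 53.2 CPM in control. *Actl6a* (chr3:32706298-32726973, plus strand), the carrier of the miR-9-3p match, measured 108, 110, 114 and 101 CPM across the 4 knockout samples and 126, 118, 110 and 97.7 CPM across the 4 controls. Its log2 fold change was -0.06 (SE 0.09, 95% interval -0.26 to 0.14, adjusted p = 0.746 by edgeR), and the controls spanned the knockout samples on both sides. Exons of *Actl6a* overlap those of the protein-coding gene *Mrpl47* on the opposite strand.

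The plant homeodomain subunits differed among themselves. *Dpf1* (chr7:29303951-29318243, plus strand), a neuronal subunit, measured 29.8, 31.1, 23.3 and 22.04 CPM across the 4 knockout samples and 18.1, 22.3, 20.1 and 19.2 CPM across the 4 controls. Of the knockout samples 3 lay above all controls, and only *Mettl3*-CKO replicate 4 lay just under control replicate 2. The log2 fold change was 0.41 (SE 0.13, 95% interval 0.14 to 0.69), or 33.3% above control, with an unadjusted p of 0.00658 and an adjusted p of 0.0570 by edgeR. Among the 10 genes this was the greatest departure from 0 in the edgeR fit and the nearest to its threshold. DESeq2 placed it past the threshold (0.41, adjusted p = 0.0276), as did edgeR without the filter on low counts (0.42, adjusted p = 0.0318) and without *Mettl3*-CKO replicate 4 (0.50, adjusted p = 0.0353). Exons of *Dpf1* overlap the antisense gene *Gm44632*.

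*Dpf3* (chr12:83213745-83487716, minus strand), the other neuronal subunit of this group, measured 35.1, 49.3, 42.2 and 43.6 CPM across the 4 knockout samples and 43.8, 50.5, 54.0 and 48.7 CPM across the 4 controls. Its log2 fold change had the opposite sign to that of *Dpf1*, at -0.21 (SE 0.11, 95% interval -0.45 to 0.03, adjusted p = 0.261 by edgeR), and limma voom called it at -0.29 (adjusted p = 0.0396). Over single samples left out it ran from -0.29 to -0.12, the smallest being without *Mettl3*-CKO replicate 1 (adjusted p = 0.588). *Phf10* (chr17:14945009-14961273, minus strand), the progenitor subunit, measured 55.5, 67.9, 62.7 and 59.9 CPM across the 4 knockout samples and 57.9, 65.9, 62.9 and 58.6 CPM across the 4 controls. The groups covered the same range, and the log2 fold change was 0.00 (SE 0.09, 95% interval -0.19 to 0.20, adjusted p = 0.986 by edgeR). Exons of *Phf10* overlap those of the protein-coding gene *1600012H06Rik* on the opposite strand.

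**Figure D2:**
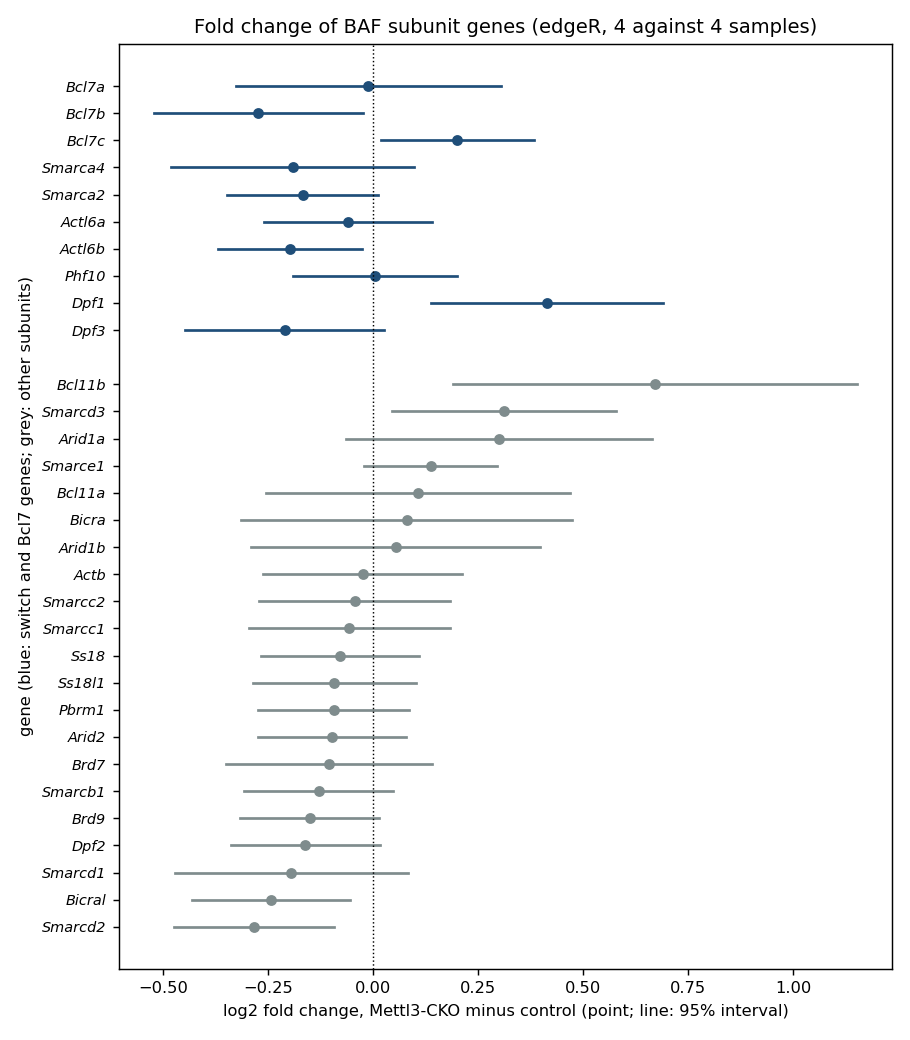
Log2 fold change of *Mettl3*-CKO against control (x axis; points, with lines for 95% intervals from edgeR, 4 samples a group) for the 10 switch and Bcl7 genes in blue and 21 other subunit genes in grey. Among the blue genes the intervals of *Bcl7b*, *Bcl7c*, *Actl6b* and *Dpf1* leave out 0 before any adjustment for the number of genes tested.

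Levels of different genes were compared per length, as FPKM (counts per kilobase of the deposited gene length and per 1000000 counted reads). In the controls the order was *Smarca4* (49.2 ± 8.34 FPKM), *Actl6a* (28.9 ± 2.73), *Bcl7a* (23.3 ± 6.0004), *Actl6b* (13.0 ± 0.811), *Bcl7b* (12.7 ± 1.96), *Phf10* (12.4 ± 0.913), *Dpf3* (11.6 ± 1.15), *Bcl7c* (10.6 ± 0.442), *Smarca2* (4.84 ± 0.393) and *Dpf1* (3.69 ± 0.379; SD, n = 4 each). The single samples of *Actl6a* and *Bcl7a* overlapped, as did those of each neighbouring pair from *Actl6b* through *Bcl7c*. The samples of *Smarca4* lay above those of *Actl6a*, those of *Bcl7a* above those of *Actl6b*, those of *Bcl7c* above those of *Smarca2*, and those of *Smarca2* above those of *Dpf1*. Thus in whole retina at this age the progenitor subunit *Actl6a* was measured above the neuronal *Actl6b*, whereas *Dpf3* and the progenitor subunit *Phf10* had overlapping levels. The deposited length counts all annotated exons of a gene, and the order depended on it. With the length of the principal transcript instead, an alternative added after the data were seen, *Bcl7c* went from rank 8 to rank 1 (67.6 ± 2.82 FPKM), since its deposited length of 7222 bases is 6.38 times that of the transcript (1132 bases). On that scale *Actl6a* (55.9 FPKM) still lay above *Actl6b* (34.9 FPKM), whereas *Phf10* (36.7 FPKM) and *Dpf3* (15.6 FPKM) came apart. *Smarca2* and *Dpf1* remained at ranks 9 and 10, with 11.7 and 8.59 FPKM.

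**Figure D3:**
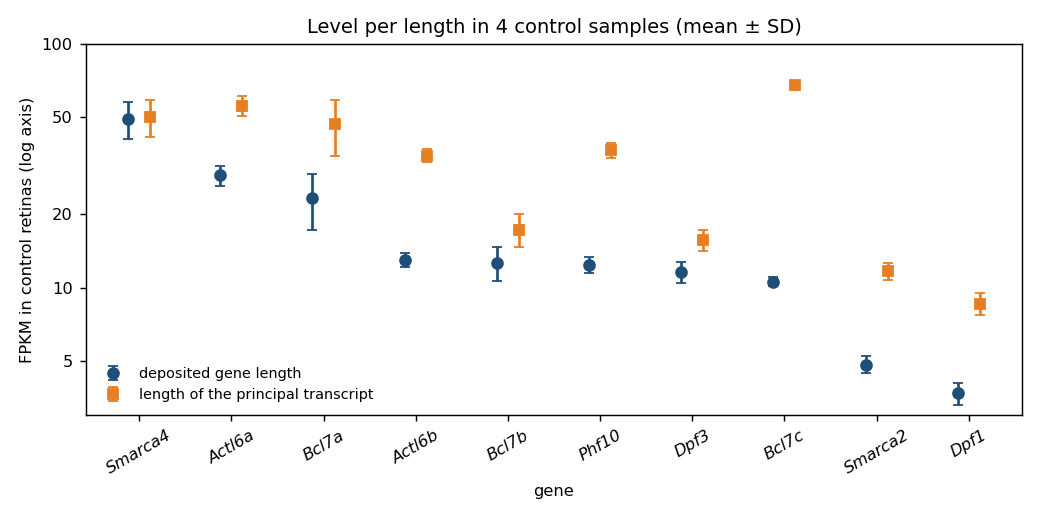
FPKM of the 10 genes in the controls (mean ± SD, n = 4, log axis), from the deposited gene length (circles) and from the length of the principal GENCODE transcript (squares). The ranks of the others shift less, and *Bcl7c* goes from 10.6 to 67.6 FPKM.

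For the exchanged or alternative subunits, the ratio within each sample was taken as the difference of log2(FPKM + 0.1), with no test. The ratio of *Dpf1* to *Phf10* was -1.02, -1.24, -1.53 and -1.55 across the 4 knockout samples and -1.78, -1.67, -1.75 and -1.71 across the 4 controls. All knockout samples lay above all controls, with means of -1.34 ± 0.26 and -1.73 ± 0.05 (SD, n = 4 each). The ratio of *Dpf3* to *Phf10* lay the other way, at -0.44, -0.24, -0.35 and -0.24 across the 4 knockout samples and -0.19, -0.17, -0.0012 and -0.05 across the 4 controls. The highest knockout sample thus lay just under the lowest control, and the means were -0.32 ± 0.10 and -0.10 ± 0.09. The ratios of these neuronal subunits to *Phf10* thus lay on opposite sides of their controls. The CPM of *Dpf1* and of *Dpf3* taken singly overlapped between the groups.

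The ratio of *Actl6b* to *Actl6a* ranged from -1.40 to -1.12 in *Mettl3*-CKO and from -1.37 to -0.94 in control, with means of -1.28 ± 0.12 and -1.14 ± 0.18 (SD, n = 4 each). Although each knockout sample had less *Actl6b* than each control, the ratios overlapped, and control replicate 1, with the highest *Actl6a* level, had the lowest control ratio. The ratio of *Smarca2* to *Smarca4* had means of -3.28 ± 0.25 and -3.30 ± 0.19, and that of *Ss18l1* to *Ss18* had means of -0.95 ± 0.22 and -0.93 ± 0.05, and both overlapped. *Ss18*, the progenitor subunit of that pair, had a log2 fold change of -0.08 (adjusted p = 0.634) and *Ss18l1*, its neuronal counterpart, of -0.09 (adjusted p = 0.579, both by edgeR).

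**Figure D4:**
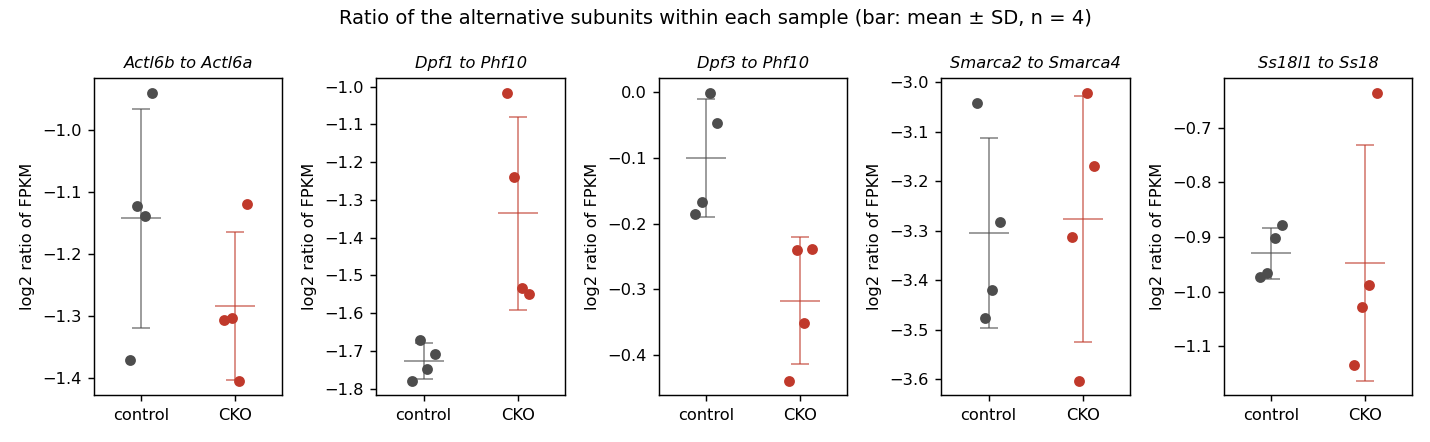
Log2 ratio of FPKM (y axis, a separate range in each panel) between the alternative subunits in each sample, control in grey and *Mettl3*-CKO in red, points from left to right being replicates 1 to 4 and bars the mean ± SD (n = 4). Groups separate for *Dpf1* to *Phf10* (upward) and *Dpf3* to *Phf10* (downward) and overlap for the other pairs.

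The other subunits of the BAF, PBAF and ncBAF complexes were not called by edgeR either. Of 21 such genes, all tested, 0 were called higher and 0 lower by edgeR, where 6.49% and 4.05% of all genes were. An unadjusted p under 0.05 was found for 4 of the 21, against 24.6% of all genes. The groups did not overlap for 5 of the 21, against 17.4% of all genes (*Smarcd2*, *Smarcd3*, *Smarce1*, *Brd9* and *Bicral*, named after their values were seen). Their median log2 fold change was -0.08, with 7 values above 0 and 14 below. Over all genes tested the median was -0.01, with 8678 values above 0 and 9320 below. The range ran from -0.28 (SE 0.09, adjusted p = 0.0578) for *Smarcd2*, a core accessory subunit, to 0.67 (SE 0.22, adjusted p = 0.0741) for *Bcl11b*, a zinc finger transcription factor that joins BAF complexes in neurons. DESeq2 called both of these (*Smarcd2*, adjusted p = 0.0354; *Bcl11b*, adjusted p = 0.0280), and limma voom called *Bcl11b* higher and *Smarcd1*, *Dpf2* and *Bicral* lower. Leaving out control replicate 1 likewise made edgeR call *Bcl11b* higher (adjusted p = 0.0149) and *Smarcd1* and *Bicral* lower (adjusted p = 0.0147 and 0.0268), and leaving out control replicate 3 made it call *Smarcd2* lower (adjusted p = 0.0439).

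Of 7 genes that regulate the exchange of subunits, *Rest* rose and *Mir9-3hg* fell. By edgeR 1 of the 7 was thus called higher and 1 lower, where 6.49% and 4.05% of all genes were. The groups did not overlap for 3 of the 7, against 17.4% of all genes. *Rest* (chr5:77265491-77286432), the repressor of neuronal genes, measured 64.5, 65.1, 50.8 and 50.8 CPM across the 4 knockout samples and 35.3, 40.7, 47.2 and 43.8 CPM across the 4 controls. All knockout samples lay above all controls, and the log2 fold change was 0.47 (SE 0.12, adjusted p = 0.0255 by edgeR), or 38.4% more. The call was lost without *Mettl3*-CKO replicate 1 (adjusted p = 0.101), *Mettl3*-CKO replicate 2 (0.0709) or control replicate 2 (0.0758), and without control replicates 1 and 4 together (0.0656), while DESeq2 and limma voom both made it.

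*Mir9-3hg* (chr7:79500026-79534403, plus strand), the host transcript of a copy of miR-9, measured 13.5, 16.6, 16.8 and 17.7 CPM across the 4 knockout samples and 20.01, 23.3, 30.8 and 26.9 CPM across the 4 controls. Again the groups did not overlap, here with all knockout samples below, and the log2 fold change was -0.64 (SE 0.14, adjusted p = 0.0132 by edgeR). Of the 15 alternative fits it lost its call only without *Mettl3*-CKO replicate 1 (-0.56, adjusted p = 0.0618). The host transcripts of miR-124 among these regulators had opposite signs, with *Mir124a-1hg* at -0.28 (SE 0.11, adjusted p = 0.155) and *Mir124-2hg* at 0.18 (SE 0.08, adjusted p = 0.178, both by edgeR). For *Mir124-2hg* all knockout samples (323 to 354 CPM) lay above all controls (285 to 321 CPM), while the groups overlapped for *Mir124a-1hg*. *Mir124a-1hg* was called lower without control replicate 1 (-0.36, adjusted p = 0.0132) and by limma voom (-0.33, adjusted p = 0.0115). The splicing regulators *Ptbp1* and *Ptbp2* and the REST partner *Rcor1* had log2 fold changes of 0.07, 0.02 and 0.05, with adjusted p of 0.658, 0.902 and 0.874 by edgeR. Alongside these values, *Actl6a*, the target of both microRNAs, had the log2 fold change of -0.06 given above.

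**Figure D5:**
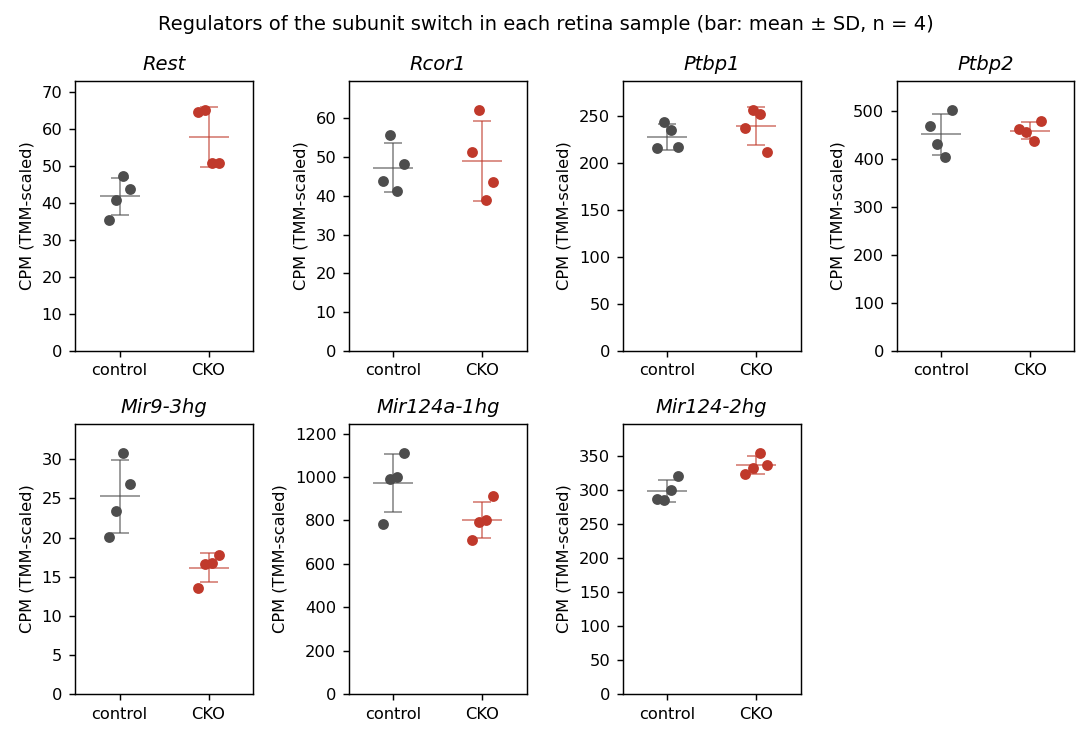
TMM-scaled CPM (y axis from 0) of the 7 regulators in each sample, control in grey and *Mettl3*-CKO in red, points from left to right being replicates 1 to 4 and bars the mean ± SD (n = 4). *Rest* and *Mir124-2hg* are higher and *Mir9-3hg* lower in all 4 *Mettl3*-CKO samples than in any control. *Mir124a-1hg*, the other miR-124 host transcript among the 7, has a lower mean in *Mettl3*-CKO, with groups that overlap.

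Among the marker lists of retinal cell types, the summed levels of progenitors and of rods separated the groups. Of 11 proliferating progenitor markers, 5 rose and 0 fell, where edgeR called 6.49% of all genes tested higher and 4.05% lower. The summed level of these markers was 3183 to 4251 CPM in *Mettl3*-CKO against 2241 to 3082 CPM in control. Leaving out single samples gave 2 to 7 called, the fewest without *Mettl3*-CKO replicate 1 (3 without *Mettl3*-CKO replicate 2 or 3 or control replicate 4). *Mki67*, a marker of cycling cells, had a log2 fold change of 0.98 (adjusted p = 0.000701) and *Ccnd1*, the cyclin of retinal progenitors, a log2 fold change of 0.35 (adjusted p = 0.158, both by edgeR). Of 8 rod markers, 0 rose and 5 fell, with summed levels of 1277 to 2384 CPM against 2496 to 3594 CPM. Leaving out single samples gave 2 to 6 called, with 2 without *Mettl3*-CKO replicate 1 and 3 without *Mettl3*-CKO replicate 2. The rod transcription factor genes *Nr2e3* and *Nrl* had log2 fold changes of -0.81 (adjusted p = 0.00615) and -0.79 (adjusted p = 0.00861, both by edgeR). Over the full lists, neither of these summed levels overlapped between the groups. Without *Mki67* the progenitor sums overlapped. Without *Nr2e3* the rod sums overlapped as well (791 to 1549 CPM in *Mettl3*-CKO against 1501 to 2464 CPM in control). Taken singly, 4 of the 11 progenitor and 4 of the 8 rod markers had groups that did not overlap, against 17.4% of all genes. The part of these cell types in the values of the BAF genes was not tested.

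The summed levels of the remaining marker lists overlapped between the groups. Sums are over all genes of a list, tested or not, and the log2 fold changes and adjusted p of this paragraph are from edgeR. Over all genes tested, 6.49% were called higher and 4.05% lower. Of 8 general neuronal markers, 1 rose and 2 fell (2578 to 2855 CPM in *Mettl3*-CKO against 2707 to 3310 CPM in control). The call higher was *Tubb3*, a neuronal tubulin (0.30, adjusted p = 0.0497), and the calls lower were the synaptic vesicle and vesicle fusion genes *Syp* (-0.43, adjusted p = 0.0228) and *Snap25* (-0.31, adjusted p = 0.0491), while *Syt1* was at -0.23 (adjusted p = 0.232). These calls were unstable, with 0 in either direction without *Mettl3*-CKO replicate 1, 2 or 3 or control replicate 2. Of 14 inner retinal neuron markers tested, 1 rose and 1 fell (914 to 1173 against 947 to 1173 CPM). The call higher was *Pou4f1* (0.55, adjusted p = 0.0108) and the call lower was *Slc6a9* (-0.80, adjusted p = 0.00104). The most counted, *Tfap2b* and *Gad1*, were at -0.03 (adjusted p = 0.935) and -0.17 (adjusted p = 0.350). Of 7 Müller glial markers tested, 3 had values above 0 and 4 below, and 1 rose and 1 fell (1909 to 2030 against 1821 to 2168 CPM). The genes called were *Glul*, glutamine synthetase (0.43, adjusted p = 0.00865), and *Rlbp1*, the retinaldehyde binding protein gene (-1.28, adjusted p = 0.00305), while *Dkk3* was at 0.06 (adjusted p = 0.756).

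Most vessel and blood markers fell in *Mettl3*-CKO, though not the gene that dominates their sum. Of 11 tested, 0 rose and 8 fell, where edgeR called 6.49% of all genes tested higher and 4.05% lower. Leaving out single samples gave 4 to 8 called lower (4 without *Mettl3*-CKO replicate 1 and 5 without *Mettl3*-CKO replicate 3). The sum over the list was 539 to 646 CPM in *Mettl3*-CKO against 545 to 674 CPM in control, of which *Kdr*, also expressed by retinal progenitors (0.02, adjusted p = 0.921), made up most. Without *Kdr* the sums did not overlap, at 16.2 to 24.0 CPM against 41.4 to 79.4 CPM. The endothelial genes *Cdh5* and *Tie1* were at -1.86 (adjusted p = 0.0182) and -2.28 (adjusted p = 0.0148), and the globin gene *Hba-a1* at -2.65 (adjusted p = 0.000451), all by edgeR. Of the 11 lens genes 5 were tested, of which 0 rose and 4 fell, and 0 were called without control replicate 4, by DESeq2 or by limma voom. The 5 tested genes summed to 4.97 to 17.5 CPM in *Mettl3*-CKO and to 5.08 to 3115 CPM in control, with *Cryaa* at -6.86 (adjusted p = 0.0401) and *Crygd* at -8.11 (adjusted p = 0.0315, both by edgeR). No marker of any list was at 0 in all samples, and the part of these cell types in the values of the BAF genes was not tested either.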

How the data were processed

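RNA-seq measured whole retinas of 4 *Mettl3*-CKO and 4 control samples, grouped by their labels. Per the methods and the processing notes, NEBNext Ultra libraries were sequenced as paired-end reads, aligned by Hisat2 to the mouse genome (GRCm38) and summarised by featureCounts. The values the authors deposited are raw whole-number counts per gene, together with gene lengths and coordinates. The annotation release and the strand setting are not given in the sources used here. Total counts were 16227095 to 20281517 per sample, the biological coefficient of variation over all genes was 15.0%, and the lowest count of the 10 genes was 318.

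In R 4.3.3, edgeR 4.0.16 (filterByExpr by group, TMM, glmQLFit and glmQLFTest, Benjamini-Hochberg adjustment over 17998 genes, threshold 0.05) was fitted on all 8 samples. The SE is the absolute log2 fold change divided by the square root of F, and intervals are 95%. The code was tested on simulated data. DESeq2 1.42.0, which the methods name, and voom from limma 3.58.1, run with sample quality weights, were alternatives, as were other scalings, filters, thresholds, a block and samples left out; the fits without control replicates 1 and 4 and the transcript lengths were added after seeing the data. FPKM was computed from the deposited counts and lengths. Sequences were read from GENCODE vM21 transcripts (GRCm38), whose gene coordinates equal the deposited ones for all 10 genes, and from RefSeq. The principal transcript of a gene is its complete coding transcript with the best APPRIS tag and then the longest coding sequence. No pair of samples agreed within sampling noise, the lowest chi-square being 5.01 per gene.

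The 10 genes, the lists of other subunits, regulators and markers, and the tests were chosen with earlier results of these data known. By rule, the text names the 10 genes, each gene of the subunit and regulator lists that passed the test, their partners in the exchanged pairs, and the 2 genes with the highest control CPM of each marker list. *Smarcd1*, *Smarcd2*, *Smarcd3*, *Smarce1*, *Brd9*, *Bicral*, *Dpf2*, *Bcl11b*, *Tubb3*, *Syp*, *Pou4f1*, *Slc6a9*, *Rlbp1*, *Cdh5*, *Tie1* and the uncalled regulators were added after their values were seen.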

Additional observations from a re-analysis of the deposited data

Results flagged for a closer look

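Among 50 groups of 4 samples examined (log2 CPM of the members, *Mettl3*, the regulators, *Ss18* and *Ss18l1*, and the 5 ratios), 2 held a sample far from the others by Dixon's test at the 95% level, where chance alone flags about 1 in 20, or 2.5 here. The log2 CPM of *Bcl7b* in *Mettl3*-CKO replicate 1 was 4.48, against 4.71 to 4.74 in the other knockout samples. The log2 CPM of *Smarca4* in control replicate 1 was 7.94, against 8.41 to 8.45 in the other controls. This is also the control with the highest mitochondrial share (2.38%) and the one that differed most from the other controls over all genes. The part of either in the *Smarca4* value was not tested.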

How the results depend on the processing

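Of the 10 members, *Bcl7c*, *Smarca2* and *Actl6a* kept their sign and stayed uncalled in all 15 alternative fits. DESeq2 called 1 member higher (*Dpf1*, 0.41) and *Mettl3* lower (-0.38), and called 1 other subunit higher and 1 lower. Without the filter on low counts 1 member (*Dpf1*, 0.42) and 1 other subunit were called higher. The voom fit called 4 members lower (*Bcl7b* -0.33, *Smarca4* -0.34, *Actl6b* -0.22, *Dpf3* -0.29) and *Mettl3* lower (-0.39), 1 other subunit higher and 3 lower, with 2142 genes higher and 1568 lower in all, and turned *Phf10* to -0.044 and *Rcor1* to -0.044. With RLE scaling *Phf10* was -0.0011. The threshold of 0.01 left 439 genes higher and 147 lower, where that of 0.05 gave 1168 and 729, and *Rest* and *Mir9-3hg* were no longer called. Without control replicates 1 and 4, 1 member (*Bcl7b*, -0.42) and 1 other subunit were called lower, *Phf10* was -0.069 and *Ptbp1* -0.00021. Leaving out each sample in turn gave 0 to 1 members higher (1 without *Mettl3*-CKO replicate 4), 0 to 1 other subunits higher and 0 to 2 lower, and over all genes 509 to 1882 higher and 185 to 1289 lower; both minima came without knockout replicate 1, both maxima without control replicate 1. The log2 fold changes then ran from -0.16 to 0.089 for *Bcl7a*, -0.046 to 0.054 for *Phf10*, 0.33 to 0.50 for *Dpf1*, -0.49 to -0.31 for *Mettl3*, -0.084 to 0.15 for *Rcor1* and -0.021 to 0.079 for *Ptbp2*. The cause of these changes was not tested. The group differences of the 5 ratios moved by less than the pooled SD of the groups in every alternative run, but those of *Smarca2* to *Smarca4* (-0.057 to 0.17) and *Ss18l1* to *Ss18* (-0.12 to 0.045) changed sign, and that of *Dpf1* to *Phf10* ran from 0.29 to 0.46.

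The labels give both groups replicate numbers 1 to 4. Deviations from the group means correlated at -0.11, 0.22, -0.11 and 0.25 between same-numbered samples, not over 0.1 for all, so the numbers were not taken as pairs; *Mettl3*-CKO replicates 1 and 3 correlated best with another number. With the replicate block, 1198 genes were higher and 660 lower, 0 members were called, 1 other subunit (*Bcl11b*) was called higher, *Bcl7a* turned to 0.022, and *Rest* was not called (0.47, adjusted p = 0.0528 by edgeR).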
